A study of Mus musculus with 6 samples.

Results

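The miR-200 family comprises 5 hairpins, miR-200b, miR-200a, miR-429, miR-200c and miR-141. All rows of the deposited table that carry one of these names with the suffix -3p or -5p were taken, which gave 10 mature arms of 1414 rows in all, 1104 of them known mouse miRNAs. The 3 Model libraries (56, 57 and 59) came from pancreas of C57BL/6 mice of 22 to 25 g given caerulein, a peptide that acts like the gut hormone cholecystokinin and makes acinar cells secrete, with lipopolysaccharide (LPS) added to the last injection. The 3 Control libraries (43, 44 and 45) came from mice of the same strain and weight that received saline by the same schedule of 7 injections, 1 per hour. The labels state the caerulein dose as 50 mg/kg, name saline as a further treatment of both groups, and put the taking of tissue at 24 hours after the start. No group received caerulein or LPS alone, and the labels do not say whether a library came from 1 mouse or from pooled mice, so a p-value here reflects differences among libraries, part of which may be technical.

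Members of this family are made in most epithelia, and in the pancreas they are known from both exocrine and endocrine epithelial cells. Their main arms, all on the 3p side, are best known for repressing Zeb1 and Zeb2, transcription factors that switch off E-cadherin, and the Zeb factors in turn repress transcription of the family. A miRNA selects its targets mostly through its seed, bases 2 to 8 from the 5′ end, and the family divides into members whose seeds differ at a single base. Messenger RNAs are not part of the data used here, so targets are not described.

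In the RefSeq annotation of GRCm38.p6, the hairpins lie in 2 clusters, both transcribed from the minus strand. Mir200b (chr4:156055681-156055750), Mir200a (chr4:156054896-156054985) and Mir429 (chr4:156053905-156053987) span 1846 bases of chromosome 4. All of them lie within introns of the protein-coding Ttll10 and within the noncoding Gm13648 of GENCODE M21, in an exon of Gm13648 for Mir429 and in an intron for the other pair. Mir200c (chr6:124718322-124718390) and Mir141 (chr6:124717914-124717985) span 477 bases of chromosome 6, within introns of the noncoding Gm15884. Mir141 also overlaps in part an exon of Gm29008, which the annotation lists as of type TEC.

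The 3p arms are shown because they hold nearly all of the family's reads and because their seeds, in capitals, define the groups that were summed and tested.
mmu-miR-200b-3p: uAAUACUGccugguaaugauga
mmu-miR-200c-3p: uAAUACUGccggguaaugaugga
mmu-miR-429-3p: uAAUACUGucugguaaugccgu
mmu-miR-200a-3p: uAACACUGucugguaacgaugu
mmu-miR-141-3p: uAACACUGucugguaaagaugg
Counted from the 5′ end, the seed groups are separated by U4C in the step from miR-200b-3p to miR-200a-3p. Beyond the seed, miR-200b-3p differs from miR-200c-3p by U11G and A22G and by 1 extra base at the 3′ end of miR-200c-3p. The arms miR-200a-3p and miR-141-3p differ by C17A and U22G, and miR-200a-3p differs from miR-429-3p by C4U, C17U, A19C and U20C. The sources used here do not say whether reads with a mismatch could be counted in more than 1 of these rows, so the split of reads between near-identical members is uncertain.

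The 5p arms, whose share of their hairpins is described further on, carry other seeds, also in capitals.
mmu-miR-200b-5p: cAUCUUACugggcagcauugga
mmu-miR-200a-5p: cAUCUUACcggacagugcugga
mmu-miR-200c-5p: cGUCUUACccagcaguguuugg
mmu-miR-141-5p: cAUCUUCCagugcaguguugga
The sequences of all 10 members in the deposited table were identical to those of RefSeq. No row of the table outside the family, known or predicted, shared the seed of a member. The hairpins of miR-200a and miR-200b, whose arm ratios are contrasted below, are given with both mature arms in capitals.
Mir200a: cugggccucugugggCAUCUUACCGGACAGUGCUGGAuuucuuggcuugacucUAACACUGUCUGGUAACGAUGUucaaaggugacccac
Mir200b: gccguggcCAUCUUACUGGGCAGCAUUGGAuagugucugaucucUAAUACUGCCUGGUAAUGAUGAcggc

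The table totals were 2489009, 3006220 and 2884794 counts in Model libraries 56, 57 and 59 and 2629801, 2381522 and 1943693 counts in Control libraries 43, 44 and 45. Levels are given as CPM, counts divided by library size with TMM factors, which set the bulk of miRNAs equal between libraries. The labelled tissue was checked against the acinar markers miR-216a-5p, miR-216b-5p, miR-217-5p and miR-148a-3p, which together reached 47827 to 50990 CPM in Model and 55777 to 92618 CPM in Control libraries. The beta-cell miR-375-3p was at 30851 CPM or more in every library, whereas liver miR-122-5p, neural miR-124-3p, muscle miR-1a-3p and cardiac miR-208a-3p together stayed at or below 465 CPM.

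The family was among the largest contributors to the pancreatic miRNA pool. Its members took 8.993%, 8.17% and 8.96% of all counts in Model libraries 56, 57 and 59, against 8.999%, 9.33% and 9.19% in Control libraries 43, 44 and 45. The means were 8.71% ± 0.469 in Model and 9.17% ± 0.168 in Control libraries (SD, n = 3 each), with each Model library below each Control library, though Model library 56 and Control library 43 were almost level. The difference of -0.467 percentage points was -0.196 without Model library 57, and as a share of the authors' totals it was 0.258. The 3p arms held 97.0% to 98.2% of the family's counts in Model and 98.2% to 98.5% in Control libraries. Grouped by seed over the whole table, the AAUACUG seed of miR-200b-3p, miR-200c-3p and miR-429-3p ranked 2 of 1094 seeds by summed counts, and the AACACUG seed of miR-200a-3p and miR-141-3p ranked 7.

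The most abundant member was miR-200c-3p, which ranked between 10 and 15 among all rows in every library. It stood at 23211, 21562 and 21719 CPM in Model libraries, against 24411, 28656 and 30982 CPM in Control libraries. All Model libraries lay below all Control libraries. Next came the chromosome 4 members miR-200a-3p and miR-429-3p, at ranks 11 to 20 and 15 to 21. For miR-200a-3p the values were 20782, 18651 and 18242 CPM in Model and 23981, 29877 and 25750 CPM in Control libraries. For miR-429-3p they were 18976, 17108 and 16860 CPM in Model and 22991, 28286 and 24426 CPM in Control libraries. Both had Model libraries that lay wholly below Control libraries.

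The chromosome 6 member miR-141-3p was at 12390, 12217 and 12211 CPM in Model and 12381, 14311 and 18875 CPM in Control libraries. Its groups overlapped, because Control library 43 was at the level of the Model libraries, and Control library 45 stood above the rest. The least abundant 3p arm, miR-200b-3p, was at 5608, 4374 and 5914 CPM in Model and 5938, 5432 and 5213 CPM in Control libraries, with overlapping groups. In the order of levels, miR-200a-3p exceeded miR-429-3p, miR-429-3p exceeded miR-141-3p and miR-141-3p exceeded miR-200b-3p in all 6 libraries. The first and second places were not separated as cleanly, since miR-200a-3p exceeded miR-200c-3p in 1 library, Control 44.

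The 5p arms were far less abundant. The levels of miR-200b-5p were 765, 513 and 1086 CPM in Model and 578, 728 and 1025 CPM in Control libraries. Those of miR-200a-5p were 781, 545 and 795 CPM in Model and 579, 593 and 503 CPM in Control libraries. The groups of both overlapped, with Model library 57 the lowest of its group in each. For miR-141-5p the values were 320, 237 and 342 CPM in Model and 202, 206 and 252 CPM in Control libraries. For miR-200c-5p they were 115, 96.3 and 127 CPM in Model and 87.0, 112 and 109 CPM in Control libraries. Here too the groups overlapped, so no tested 5p arm had Model wholly above Control, as 14.4% of all rows tested had. The remaining arm, miR-429-5p, had 1, 2 and 0 counts in Model and 0 counts in every Control library, where 0 counts allow up to 1.16 to 1.80 CPM (3 counts a library, counting error only). It was below the filter and was not tested.

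**Figure D1:**
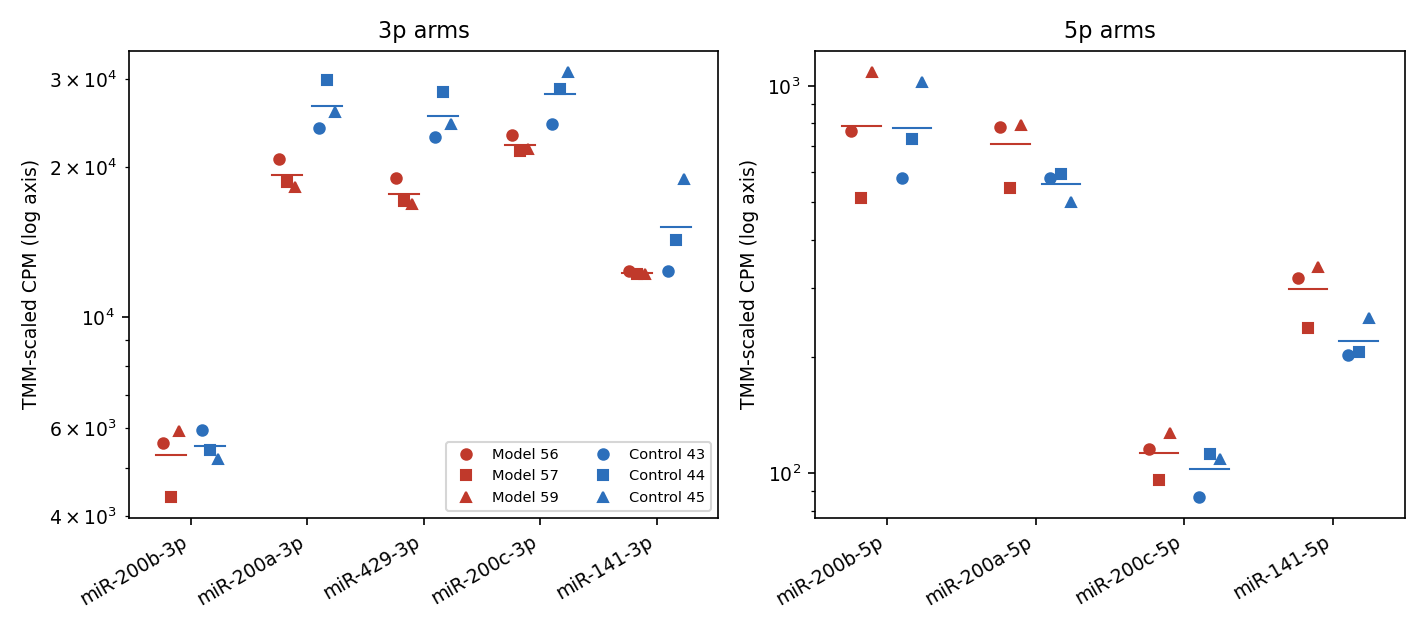
TMM-scaled CPM of the 9 tested members in each library, on log axes, with 3p arms in the left panel and 5p arms in the right. Points are single libraries, Model in red and Control in blue, and lines are group means; the Model points of miR-200a-3p, miR-429-3p and miR-200c-3p lie wholly below the Control points on this scale, and all other members overlap.

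The comparison of the design asks which miRNAs differ in pancreas between mice given caerulein with LPS and saline controls. No member of the family passed the test: with edgeR's quasi-likelihood test and Benjamini-Hochberg adjustment over all 499 rows tested, 0 of the 9 tested members had an adjusted p under 0.05, where 1.2% of all rows did, 0.2% lower and 1% higher in Model. At an unadjusted p under 0.05, 3 members were lower in Model, where 12.4% of all rows were, and DESeq2 also called 0. All 9 had at least 182 counts in every library, so none entered the test through 1 group alone. All 5 tested 3p arms had negative and all 4 tested 5p arms positive log2 fold changes of Model over Control with TMM factors, whereas all 9 were positive with the authors' totals, described below.

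The lowest p of the family belonged to miR-429-3p, with means of 17648 ± 1157 CPM in Model and 25234 ± 2739 CPM in Control libraries (SD, n = 3 each). On the log2 scale Model differed from Control by -0.52 (SE 0.13, 95% interval -0.81 to -0.22, edgeR adjusted p = 0.0745). Its neighbour miR-200a-3p averaged 19225 ± 1364 CPM in Model and 26536 ± 3025 CPM in Control libraries (SD, n = 3 each), and the log2 difference came to -0.46 (SE 0.13, edgeR adjusted p = 0.0866). For miR-200c-3p the means were 22164 ± 910 CPM in Model and 28016 ± 3332 CPM in Control libraries. These 3 were the members whose groups did not overlap, all with Model below, as in 16.6% of all rows tested. The adjusted p of miR-429-3p ranged from 0.0363 to 0.369 over its alternatives, with the lowest under upper quartile scaling.

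The other 3p arms had smaller differences. The 95% interval of the log2 fold change was -0.70 to 0.09 for miR-141-3p (estimate -0.31, edgeR adjusted p = 0.321) and -0.45 to 0.33 for miR-200b-3p (estimate -0.06, edgeR adjusted p = 0.878). Without Control library 45, the estimate for miR-141-3p was -0.15. Among the 5p arms, the estimates were 0.45 for miR-141-5p (95% interval -0.12 to 1.01, edgeR adjusted p = 0.314), 0.34 for miR-200a-5p (-0.21 to 0.89), 0.14 for miR-200c-5p (-0.40 to 0.68) and 0.02 for miR-200b-5p (-0.77 to 0.81). All of these intervals include 0, and that of miR-200b-5p was the widest of the family.

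Summing reads by seed set aside the uncertain split between members of the same seed, and it gave no call either. The AAUACUG seed was at 45575 ± 1856 CPM in Model and 58156 ± 3617 CPM in Control libraries (SD, n = 3 each), with TMM factors of the seed table and a difference of -0.35 in log2 terms (SE 0.10, edgeR adjusted p = 0.0928 over 398 seeds). The AACACUG seed was at 31826 ± 1121 CPM in Model and 41284 ± 4151 CPM in Control libraries, which differ by -0.38 in log2 terms (SE 0.11, edgeR adjusted p = 0.116). In both, each Model library lay below each Control library, as in 15.3% of all seeds tested, while with the authors' totals the estimates were 0.41 and 0.39. Of all seeds tested, 1.76% passed the test.

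The estimates of the 3p arms were close to those of abundant miRNAs in general. The 32 rows with a mean of at least 10000 CPM include all 3p arms of the family but miR-200b-3p. These 32 rows had a median log2 fold change of -0.37, and 30 of them were negative, against a median of 0.00 over all rows. Among these 32, miR-429-3p was the seventh and miR-200a-3p the eleventh from the most negative, and miR-200c-3p and miR-141-3p ranked 19 and 21. The 67 rows between 1000 and 10000 CPM, which include miR-200b-3p, had a median of -0.13. The 113 rows between 100 and 1000 CPM, which include the tested 5p arms, had a median of 0.14.

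**Figure D2:**
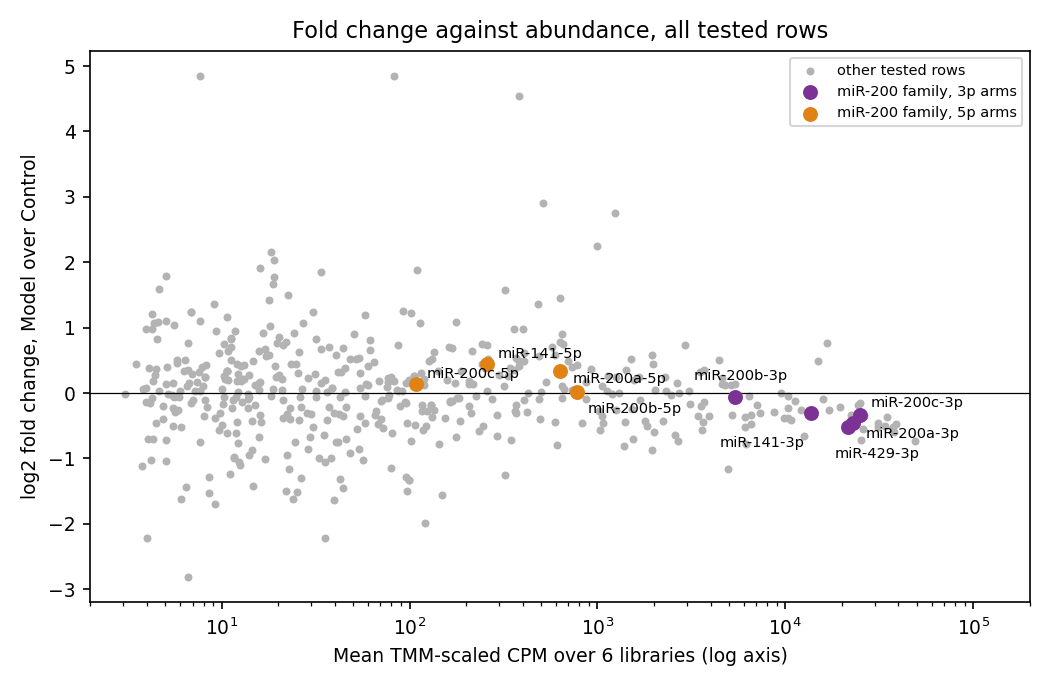
Log2 fold change of Model over Control against the mean TMM-scaled CPM on a log axis, for each of the 499 tested rows, with the 3p arms of the family in purple and its 5p arms in orange. The 3p arms sit among other abundant rows that lie below 0, and the 5p arms between 0.02 and 0.45.

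The sign of the difference depended on what the counts were divided by. In the authors' RPM values, counts are divided by a library total of 22055639 to 24325566 in Model and 27093090 to 27876715 in Control libraries, and the rows of the table make up 10.2% to 13.6% of it in Model and 7.17% to 9.43% in Control libraries. The sources used here do not say what these totals count. On that scale miR-200c-3p was at 2575, 3187 and 2992 RPM in Model, against 2274, 2159 and 1907 RPM in Control libraries, so that Model lay wholly above Control. The same order held for 8 of the 9 tested members, all but miR-429-3p, and for 49.5% of all rows tested.

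With the authors' totals in the fit, the median over all rows moved by 0.79 on the log2 scale, and the members' estimates ran from 0.27 for miR-429-3p to 1.24 for miR-141-5p. Of these, miR-141-5p (edgeR adjusted p = 0.0234) and miR-200a-5p (1.09, edgeR adjusted p = 0.0407) passed the threshold. With these totals, 126 of all 499 rows tested passed, 124 of them higher in Model. Upper quartile factors shifted the median by -0.29, and there miR-200a-3p (-0.75, edgeR adjusted p = 0.0386) and miR-429-3p (-0.80, edgeR adjusted p = 0.0363) passed. With upper quartile factors, 45 of all 499 rows tested passed, 39 of them lower in Model. Measured from the median of all rows, miR-429-3p lay 0.51 to 0.52 below it and miR-141-5p 0.44 to 0.46 above it under each of the 5 scalings tried.

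**Figure D3:**
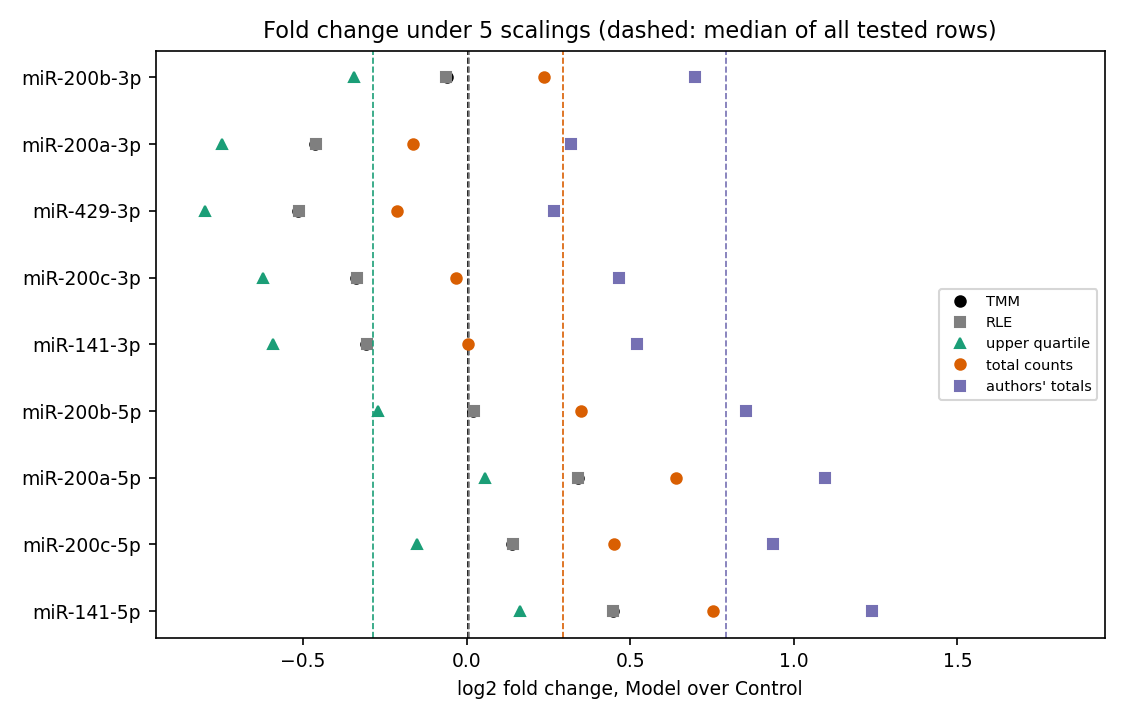
Log2 fold change of Model over Control of the 9 tested members under 5 ways of scaling libraries, with the median of all tested rows under each as a dashed line. The 3p arms lie at or left of the dashed line of their scaling and the 5p arms at or right of it, while the line itself moves from -0.29 with upper quartile factors to 0.79 with the authors' totals.

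Ratios between members within a library do not depend on scaling. The neighbours miR-200a-3p and miR-429-3p kept an almost fixed ratio: 1.10, 1.09 and 1.08 in Model libraries 56, 57 and 59, against 1.04, 1.06 and 1.05 in Control libraries 43, 44 and 45. The SD of its log2 over the 6 libraries was 0.029, the smallest of all 4851 pairs among the 99 rows of at least 1000 CPM. Counting error alone gives a log2 SD of at most 0.010 for this pair in a library. Each Model library lay above each Control library, with a mean log2 ratio of 0.12 ± 0.01 in Model and 0.07 ± 0.01 in Control libraries (SD, n = 3 each). The groups overlapped in every other ratio between single 3p arms of the family. How many of the 4851 pairs had groups that did not overlap was not counted. The pairs that followed were let-7a-5p with let-7f-5p and let-7a-5p with let-7c-5p, which differ at 1 position each. Next came let-7b-5p with let-7g-5p, which differ at 4 positions as miR-200a-3p and miR-429-3p do, and let-7c-5p with miR-22-3p, which differ at 20.

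The ratio of the third member of the chromosome 4 cluster to these neighbours varied more. The ratio of miR-200b-3p to miR-200a-3p was 0.270, 0.235 and 0.324 in Model libraries, against 0.248, 0.182 and 0.202 in Control libraries. This overlapped between groups, and the SD of its log2 over 6 libraries was 0.30, at rank 1213 of the 4851 pairs. On chromosome 6, miR-200c-3p outnumbered miR-141-3p by 1.87, 1.76 and 1.78 in Model and by 1.97, 2.00 and 1.64 in Control libraries. The SD of that log2 ratio was 0.11, which placed the pair at rank 78 of the 4851.

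Between the clusters, the 3p reads of chromosome 4 outnumbered those of chromosome 6 by 1.27, 1.19 and 1.21 in Model and by 1.44, 1.48 and 1.11 in Control libraries. The log2 ratio was 0.29 ± 0.05 in Model and 0.41 ± 0.23 in Control libraries (SD, n = 3 each), and the groups overlapped. The difference of -0.12 was -0.05 without Control library 44, -0.07 without Control library 43 and -0.25 without Control library 45. Control library 45, the highest in miR-141-3p, had the lowest ratio of all. Between the seed groups, the ratio of AAUACUG to AACACUG reads was 1.44, 1.39 and 1.46 in Model and 1.47, 1.41 and 1.36 in Control libraries. The log2 of that ratio was 0.52 ± 0.03 in Model and 0.50 ± 0.06 in Control libraries, a difference within the spread of either group.

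**Figure D4:**
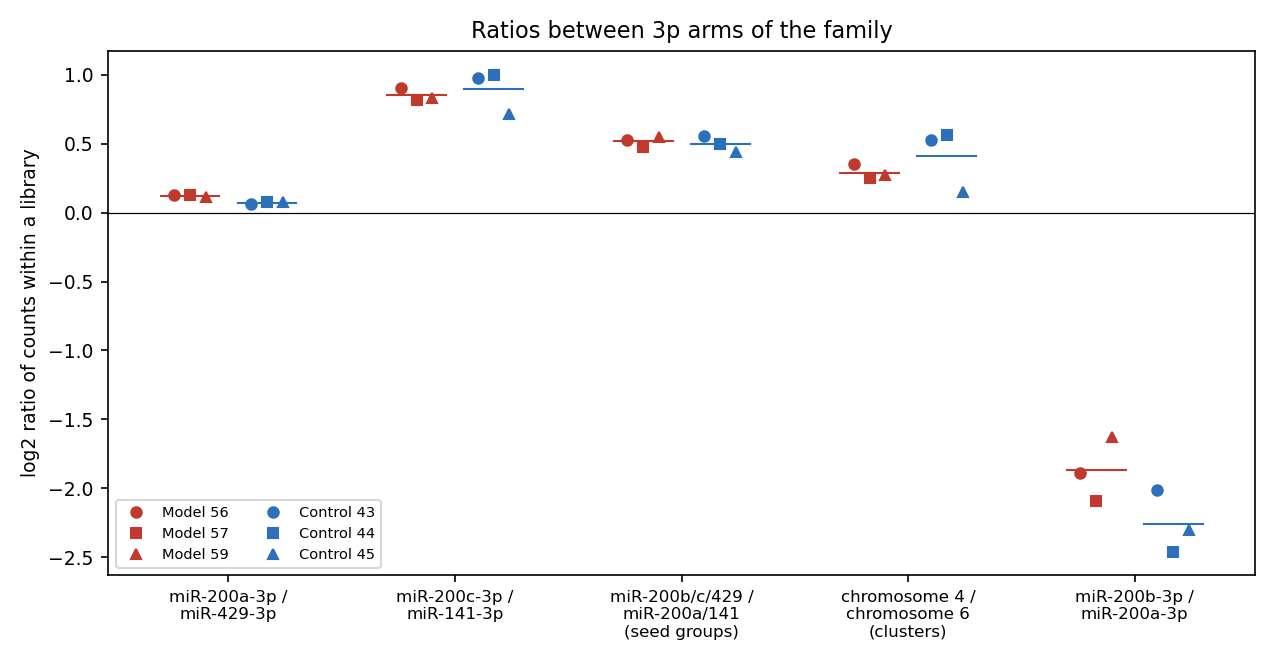
Log2 ratios of 3p counts within each library, Model in red and Control in blue, with lines at group means. The ratio of miR-200a-3p to miR-429-3p stays near 0.1 in every library, and that of miR-200b-3p to miR-200a-3p ranges from -2.46 to -1.63.

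The balance of the arms of a hairpin was examined in the same way. In miR-200a there were 26.6, 34.2 and 22.9 reads of the 3p arm per read of the 5p arm in Model libraries, against 41.4, 50.3 and 51.2 in Control libraries. In miR-141 there were 38.7, 51.4 and 35.7 in Model and 61.1, 69.3 and 74.8 in Control libraries. The strongest imbalance was that of miR-200c, with 201, 223 and 170 in Model and 279, 255 and 282 in Control libraries. In each of these 3 hairpins every Model library had relatively more of the 5p arm than every Control library.

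In miR-200b the 3p arm outnumbered the 5p arm by 7.33, 8.53 and 5.44 in Model and by 10.3, 7.46 and 5.08 in Control libraries, and the groups overlapped. A relatively higher minor arm in all Model than in all Control libraries was found in 11.2% of the 125 hairpins whose arms each averaged 10 counts or more. The median change of the log2 ratio of minor to major arm over these hairpins was 0.00, with quartiles of -0.37 and 0.41 and with the minor arm relatively higher in Model in 62 of them. These hairpins were not matched to those of the family in abundance. Over single rows, the median log2 fold change was -0.37 at 10000 CPM or more and 0.14 between 100 and 1000 CPM. The part of abundance in the arm changes was not tested.

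No arm ratio of the family passed limma's test with adjustment over the 125 hairpins, in which 0.8% passed. Without adjustment, the limma p was under 0.05 for miR-200a and miR-141, and for 18 of all 125 hairpins. The log2 ratio of 5p to 3p differed by 0.78 for miR-200a (SE 0.30, 95% interval 0.08 to 1.49, limma adjusted p = 0.286). The difference was 0.72 for miR-141 (SE 0.30, 95% interval 0.02 to 1.41, limma adjusted p = 0.318) and 0.47 for miR-200c (SE 0.28, limma adjusted p = 0.476). For miR-200b it was 0.06, with a 95% interval of -0.81 to 0.94 (limma adjusted p = 0.983). That interval includes the estimates of the other hairpins, and a difference between miR-200b and them was not tested.

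**Figure D5:**
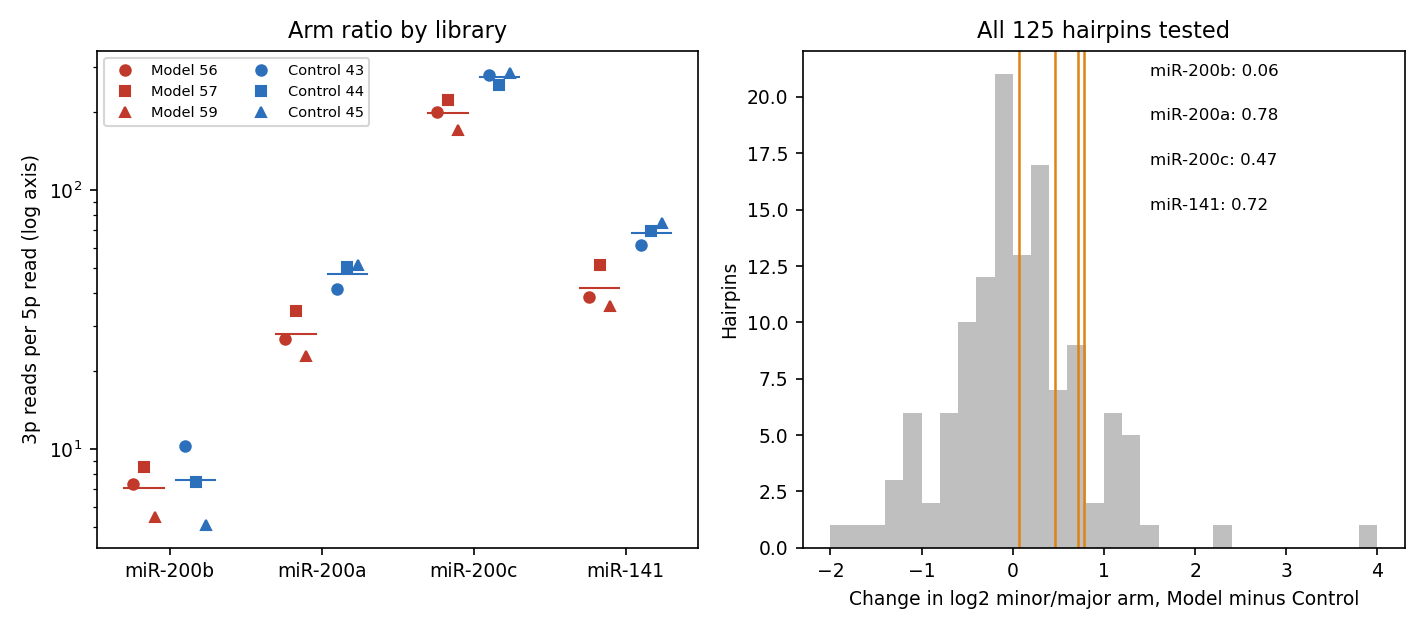
Left, reads of the 3p arm per read of the 5p arm in each library on a log axis, Model in red and Control in blue, with lines at group means. Right, the number of hairpins by their change in the log2 ratio of minor to major arm, Model minus Control, with the 4 tested hairpins of the family as lines at 0.06 for miR-200b, 0.47 for miR-200c, 0.72 for miR-141 and 0.78 for miR-200a, of which all but miR-200b lie above the upper quartile of 0.41.

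Other miRNAs of epithelial cells gave no call. Of the 16 arms listed, 15 were in the table and 13 were tested, and of these 0 were higher and 0 lower at an edgeR adjusted p under 0.05, with 8 positive and 5 negative log2 fold changes and a median of 0.13. Skin and squamous epithelial miR-203-3p was at 838 ± 46.7 CPM in Model and 897 ± 149 CPM in Control libraries (SD, n = 3 each). Sensory epithelial miR-183-5p was at 4803 ± 590 CPM in Model and 4361 ± 752 CPM in Control libraries. Of the 15, only miR-802-5p had groups that did not overlap, with 19163 ± 1860 CPM in Model and 31465 ± 4877 CPM in Control libraries (an estimate of -0.72, SE 0.15, edgeR adjusted p = 0.0564).

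Of the markers of other cell types, 1 passed the test. The acinar markers, 4 of 4 tested, all had negative estimates with TMM factors (median -0.49) and 0 passed. Model lay wholly below Control in miR-216a-5p, miR-216b-5p and miR-148a-3p, and the groups of miR-217-5p overlapped. Islet markers, 3 of 3 tested, had 1 positive estimate (miR-7a-5p, 0.0050) and 2 negative ones, with a median of -0.71, and 0 passed. In miR-375-3p and miR-184-3p Model lay wholly below Control, and the groups of miR-7a-5p overlapped. Leukocyte markers, 6 of 6 tested, had 5 positive estimates and 1 negative, with a median of 1.22, and their summed level was 5503 to 12237 CPM in Model and 4855 to 7217 CPM in Control libraries. The marker that passed was myeloid miR-223-3p, at 2162 ± 60.8 CPM in Model against 321 ± 129 CPM in Control libraries (an estimate of 2.75, SE 0.31, edgeR adjusted p = 0.0077). Model also lay wholly above Control in miR-155-5p, which activated immune cells express, and in miR-142a-3p (an estimate of 1.45, edgeR adjusted p = 0.111). The level of miR-155-5p was 907 ± 589 CPM in Model and 121 ± 46.6 CPM in Control libraries (an estimate of 2.91, edgeR adjusted p = 0.0564). Of all rows tested, 14.4% had Model wholly above Control and 16.6% wholly below. The most abundant leukocyte marker, lymphocyte miR-150-5p, was at 3454 ± 2228 CPM in Model and 4404 ± 769 CPM in Control libraries, with overlapping groups. Mesenchymal markers, 5 of 5 tested, summed to 17317 to 20913 CPM in Model and 18091 to 27991 CPM in Control libraries with 0 passing. Among them miR-145a-5p and miR-199a-3p had Model wholly above Control, and miR-199a-5p had Model wholly below. Endothelial markers, 2 of 2 tested, summed to 32211 to 37872 CPM in Model and 40568 to 47690 CPM in Control libraries. They had 1 positive and 1 negative estimate, and 0 of them and 0 of 3 erythroid markers passed. Endothelial miR-126a-3p had Model wholly below Control, and the groups of miR-126a-5p overlapped. No marker of these cell-type lists was at 0 in any library, and their part in the values of the family was not tested. In whole tissue, a change in the share of epithelial cells and a change of a miRNA per cell cannot be told apart. The sign of the 3p estimates also depended on scaling, as described above.

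The rows whose pattern over the 6 libraries was most like that of the summed 3p arms were found among 191 known miRNAs of at least 100 CPM. By Pearson's r of log2(CPM + 1), given as a description over 6 libraries that share a scaling and differ between groups, these were let-7b-5p (0.96), miR-216a-3p (0.96), let-7a-5p (0.95), miR-375-3p (0.95) and let-7f-5p (0.95). The acinar miR-216a-3p was at 1030, 1068 and 931 CPM in Model and 1479, 2088 and 1716 CPM in Control libraries. The beta-cell miR-375-3p was at 40024, 39295 and 30851 CPM in Model and 50725, 62056 and 69441 CPM in Control libraries. All of these rows had each Model library below each Control library, as 16.6% of all rows tested had, and none passed the test. That order follows largely from how they were chosen, since the summed 3p arms had it too. Within the family, r with the summed 3p arms was 0.97 for miR-200a-3p, miR-429-3p and miR-200c-3p, which make up much of that sum, 0.78 for miR-141-3p and 0.17 for miR-200b-3p.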

How the data were processed

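Size-selected small RNA was ligated to adapters that carry unique molecular identifiers, per the labels' protocols. The authors deposited a table of whole-number read counts per mature miRNA arm, per the file headers, and a second set of columns that hold RPM values by the authors, as the ratio of count to value shows. No source used here says whether reads sharing an identifier were collapsed. Bowtie2 and GRCm38.p6 appear, without a role, in the submitters' processing notes. Ligation bias distorts levels between miRNAs, so the order of members is that of reads. The 310 predicted rows were kept in the fits.

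The main test was that of edgeR 4.0.16 under R 4.3.3 (filterByExpr with a minimum count of 10 and a minimum total of 15, TMM factors, robust quasi-likelihood test, two-sided, adjusted over all rows, threshold 0.05). SE is the log2 fold change divided by the square root of F. For seeds, counts were summed over rows sharing bases 2 to 8, with 14 rows of repeated sequence left out. Arm ratios, log2 with 1 count added to each arm, were tested with limma 3.58.1. DESeq2 1.42.0, other scalings and leaving out single libraries were alternatives. The edgeR and limma steps were tested on simulated data. The names taken from outside the family follow a rule: fixed marker lists, and the 5 rows most like the summed 3p arms. Exceptions are let-7c-5p, let-7g-5p and miR-22-3p, which were named from the 5 pairs with the smallest SD of the log2 ratio. Of the listed markers, the text gives single values for those named only and the rest by list. The members and lists were chosen with earlier results of these data known.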

Additional observations from a re-analysis of the deposited data

How the results depend on the processing

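No paired analysis was possible because the groups share no replicate numbers. Calls over the whole table numbered 6 with TMM (5 higher, 1 lower in Model), 15 with RLE factors (7 higher, 8 lower), 18 with total counts alone (17 higher), 45 with upper quartile factors (39 lower), 126 with the authors' totals (124 higher), 44 with DESeq2 (22 each way), 58 without a filter (35 lower), 15 with known miRNAs only (8 higher), and 3 to 10 without single libraries, with 10 without Control 43 and 3 without Control 44, Control 45 or Model 57. Calls among members numbered 0, except 2 lower with upper quartile factors, 2 higher with the authors' totals and 1 lower (miR-429-3p, -0.54, edgeR adjusted p = 0.0499) without a filter. Seed and arm-ratio calls stayed at 0 in every alternative. With the authors' totals, log2 fold changes turned to 0.70 (miR-200b-3p), 0.32 (miR-200a-3p), 0.27 (miR-429-3p), 0.47 (miR-200c-3p), 0.52 (miR-141-3p), 0.41 (seed AAUACUG) and 0.39 (seed AACACUG). With total counts alone, miR-200b-3p turned to 0.24 and miR-141-3p to 0.0030. With upper quartile factors, miR-200b-5p turned to -0.27 and miR-200c-5p to -0.15. For miR-200b-5p the estimate was also -0.0012 without a filter and -0.0026 with known miRNAs only. Without single libraries, miR-200b-3p ran from -0.128 to 0.0895 (positive without Model 57), miR-200b-5p from -0.258 to 0.281 (negative without Control 43, Control 44 or Model 59) and the arm ratio of miR-200b from -0.181 to 0.326 (negative without Control 43 or Model 59). The family's share differed by -0.467 percentage points (Model minus Control), by 0.258 as a share of the authors' totals, by -1.62 with the 10 most abundant other rows left out of the total, and by -0.609 to -0.196 without single libraries. The difference between seed groups in log2 ratio was 0.0205, 0.0681 as a mean of log2 counts, and -0.0072 to 0.05 without single libraries. Except where scaling itself sets the shift, the cause was not tested.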
